A study of Mus musculus with 9 samples.

Results

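The Id proteins and the E proteins of FDCPmix cells were examined through the 3 Id genes Id1, Id2 and Id3 and the 3 E protein genes Tcf3, Tcf4 and Tcf12. A probe was taken as a member when its accession belonged to any of these 6 genes, which gave 11 of the 41174 probes on the array. Id1, Id2 and Tcf3 had 2 probes each, Tcf4 had 3, and Id3 and Tcf12 had 1 each. Older symbols were handled by accession because Tcf7l1 and Tcf7l2, which encode unrelated HMG-box factors, have in the past been called Tcf3 and Tcf4. The 11 probes read well above background on 9 of 9 arrays, and each passed the filter that left 36585 probes to be tested.

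E proteins are basic helix-loop-helix (bHLH) transcription factors that are made in most tissues. They bind E-box DNA as pairs, either with each other or with a lineage-restricted bHLH partner such as TAL1. Id proteins have the helix-loop-helix but no basic region, so that an E protein paired with an Id protein cannot bind DNA. In blood, E proteins drive lymphoid genes, and Id2 is known for its part in natural killer, innate lymphoid and dendritic cell development.

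FDCPmix cells are multipotent blood progenitors of the mouse, kept as a line in interleukin-3. Cells under self-renewal conditions received lentivirus with no shRNA (empty vector, EV), with shRNA against Gata2 (Gata2 knockdown, KD) or with shRNA against Pu.1 (Pu.1 KD), the gene with the symbol Spi1. Viable GFP-positive cells were sorted on day 5, and 150 ng of total RNA from each of the 9 samples, 3 per group, was hybridized to a single-color Agilent array. No group was free of virus. The samples were transduced in triplicate, but whether each came from a culture of its own is not given in the sources used here. The p-values therefore measure the spread between these samples, which in the main fit includes differences between array slides. Levels below are log2 of the processed intensity over the 75th percentile of the same array, so that 0 is the level of that percentile, and differences are log2 as well.

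Both knockdowns were visible in their target. The brightest Gata2 probe read 4.50, 5.04 and 4.86 in EV replicates 1, 2 and 3, 3.61, 2.96 and 3.01 in Gata2 KD, and 4.53, 4.87 and 4.55 in Pu.1 KD. Spi1 read -1.66, -1.86 and -2.07 in EV, -0.66, -0.36 and -0.39 in Gata2 KD, and -3.62, -3.64 and -3.52 in Pu.1 KD. The arrays lay on 3 slides with 1 array of each group, and 78.4% of the first principal component (36.5% of the variance) lay between slides, whereas 98.7% of the second (28.4%) lay between groups. EV replicate 3 was the least like the rest, with a mean correlation of 0.960 to the other arrays. The 9 progenitor markers (Kit, Cd34, Ptprc and others) were well above background on every array.

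The stretch before the gene start is shown for the 2 Id genes that passed the threshold in any comparison. It is also shown for Tcf3, an E protein gene whose brighter probe was lower on each Gata2 KD array than on any other array. That probe did not pass the threshold. Each line is the 250 bases before the RefSeq start (assembly GRCm38), 5′ to 3′ on the gene's strand, at chr12:25096093-25096342 (minus strand) for Id2, chr4:136143572-136143821 (plus strand) for Id3 and chr10:80433636-80433885 (minus strand) for Tcf3. Capitals mark matches on either strand to an E-box (CANNTG), to the GATA core GATAA or to the ETS sequence GGAAGT of PU.1 sites.
Id2: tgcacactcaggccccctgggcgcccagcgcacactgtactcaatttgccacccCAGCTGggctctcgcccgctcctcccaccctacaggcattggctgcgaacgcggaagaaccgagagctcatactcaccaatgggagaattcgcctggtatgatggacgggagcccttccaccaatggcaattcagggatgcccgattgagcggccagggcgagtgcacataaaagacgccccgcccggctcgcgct
Id3: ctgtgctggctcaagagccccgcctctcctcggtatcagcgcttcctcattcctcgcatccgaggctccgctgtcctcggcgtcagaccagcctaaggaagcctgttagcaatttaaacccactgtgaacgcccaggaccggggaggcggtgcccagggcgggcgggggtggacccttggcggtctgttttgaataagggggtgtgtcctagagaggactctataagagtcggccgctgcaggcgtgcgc
Tcf3: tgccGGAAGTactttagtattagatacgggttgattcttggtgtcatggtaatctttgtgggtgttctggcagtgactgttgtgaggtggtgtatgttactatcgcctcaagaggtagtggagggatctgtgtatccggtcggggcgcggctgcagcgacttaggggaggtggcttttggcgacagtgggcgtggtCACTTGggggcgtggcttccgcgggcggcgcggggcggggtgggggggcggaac
The Id2 stretch held 1 E-box, CAGCTG, which began 196 bases before the start. The Id3 stretch held no match to any of the 3 motifs. The Tcf3 stretch held 1 E-box, CACTTG, at 54 bases and 1 GGAAGT at 246 bases before the start. GATAA was in none of the 3. Over the same 250 bases, 66.2% of the 32851 promoters in the table held a CANNTG, 22.6% a GATAA and 19.7% a GGAAGT. The matches in these stretches did not overlap, and a match describes the letters alone. Tcf12 had 3 starts in the table, and promoters of Id1 and Tcf4 were not analysed here.

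Id2 was higher in both knockdowns than in EV. On the brighter probe (probe 1) the level was 1.34, 1.499 and 1.21 in EV, 3.28, 3.17 and 2.88 in Gata2 KD, and 2.35, 2.44 and 2.65 in Pu.1 KD. The 3 groups did not overlap, and the order was Gata2 KD, then Pu.1 KD, then EV. The group means were 1.35 ± 0.14 in EV, 3.11 ± 0.21 in Gata2 KD and 2.48 ± 0.15 in Pu.1 KD (SD, n = 3). Id2 rose by 1.76 (SE 0.16, 3.39-fold, limma adjusted p = 0.000390) in Gata2 KD and by 1.13 (SE 0.16, 2.19-fold, adjusted p = 0.0106) in Pu.1 KD. These differences were larger in size than those of 98.7% and 97.9% of the tested probes. Both comparisons share the EV arrays. EV carried no shRNA, so in a rise seen in both knockdowns an effect of any shRNA cannot be told apart from the knockdowns. Within the slides the difference from EV ran from 1.54 to 1.96 for Gata2 KD and from 0.94 to 1.30 for Pu.1 KD, so every slide gave the same sign.

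The second Id2 probe read 1.18, 1.04 and 1.06 in EV and 2.86, 2.69 and 2.59 in Gata2 KD. In Pu.1 KD it read 2.09 in replicate 1 and 2.23 in replicate 3. Its spot on Pu.1 KD replicate 2 carried the scanner's outlier flag, with a median signal of 92 against 2002 and 1892 on the other Pu.1 KD arrays, and was left out. With that value missing, probe 2 gave 1.61 (adjusted p = 0.000563) for Gata2 KD and 1.06 (adjusted p = 0.0156, n = 2 for Pu.1 KD) for Pu.1 KD. The 2 probes correlated at 0.991 over the 8 arrays that both measured. With the flagged spot kept, the Pu.1 KD difference of probe 2 was -0.42 and neither of its comparisons with EV passed the threshold, while probe 1 does not depend on that spot.

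The rise of Id2 in Pu.1 KD was nearer the threshold than that in Gata2 KD. It was lost on probe 1 without Pu.1 KD replicate 3 (adjusted p = 0.0552) and on probe 2 without EV replicate 2 (adjusted p = 0.0612). Both probes lost it with the replicate number as a block (adjusted p = 0.0633 and 0.0872), under median scaling (0.0684 and 0.118) and in a fit of the compared groups alone (0.0538 and 0.0873). With slides as a block both probes kept it (limma adjusted p = 0.0122 and 0.0145). Set directly against each other, Gata2 KD exceeded Pu.1 KD by 0.63 on probe 1 (SE 0.16, 1.55-fold, adjusted p = 0.0433) and by 0.55 on probe 2 (adjusted p = 0.0759). The direct call on probe 1 was lost in 11 of 21 alternative settings, among them without EV replicate 1 or 2, Gata2 KD replicate 1 or 2, or any single Pu.1 KD array, although Gata2 KD was the higher on each of 3 slides by 0.24 to 0.84.

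**Figure D1:**
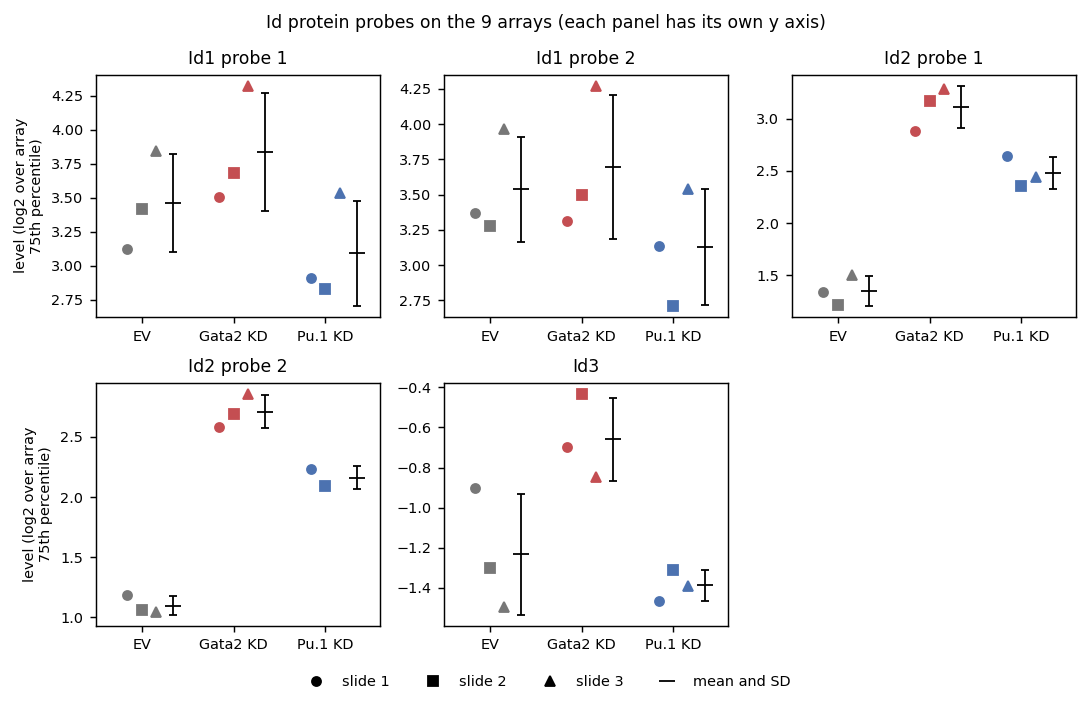
Level of each Id protein probe (y axis, log2 over the array's 75th percentile, with its own range per panel) on the 9 arrays by group (x axis). Symbols give the slide, and the bars give mean and SD. The flagged spot of Id2 probe 2 on Pu.1 KD replicate 2 is left out (-2.28 if kept, below the EV arrays). With it left out, both Id2 probes separate the 3 groups. Id3 is highest in Gata2 KD, and Id1 is highest on slide 3 within each group.

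Id3 passed the threshold between the 2 knockdowns but in neither comparison with EV. It read -0.90, -1.49 and -1.30 in EV, -0.85, -0.43 and -0.70 in Gata2 KD, and -1.31, -1.39 and -1.46 in Pu.1 KD. Each Gata2 KD array lay above every other array, though replicate 1 exceeded EV replicate 1 by less than the spread within either group. The Gata2 KD mean was -0.66 ± 0.21 against -1.23 ± 0.30 in EV (SD, n = 3), a difference of 0.57 (95% confidence interval 0.15 to 1.00, adjusted p = 0.159). Pu.1 KD averaged -1.39 ± 0.077, which was -0.15 from EV (interval -0.58 to 0.27, adjusted p = 0.934). Gata2 KD exceeded Pu.1 KD by 0.73 (SE 0.19, 1.66-fold, adjusted p = 0.0446), and by 0.54 to 0.87 within the 3 slides. This call, too, was close to the threshold. It was lost in 10 of 21 alternative settings, namely without EV replicate 3, without any single Gata2 KD or Pu.1 KD array, and in 3 other settings.

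Id1, the best-known target of BMP signaling in the family, passed the threshold in no comparison. Its brighter probe read 3.12, 3.84 and 3.42 in EV, 4.32, 3.68 and 3.50 in Gata2 KD, and 2.83, 3.54 and 2.91 in Pu.1 KD. The groups overlapped, and the highest array of each group was the array on slide 3. Gata2 KD was 0.37 from EV (interval -0.30 to 1.05, adjusted p = 0.752) and Pu.1 KD was -0.37 from EV (interval -1.05 to 0.31, adjusted p = 0.814). The direct difference was 0.74 (interval 0.065 to 1.42, adjusted p = 0.213). Within slides it was 0.60 to 0.85, and with the slide as a block in the same model its SE fell from 0.30 to 0.11 and the adjusted p was 0.00636. Probe 2 gave 0.57 directly (adjusted p = 0.471, with slides as a block 0.0466) and 0.17 to 0.79 within slides. Besides the slide block, the deposited log2 table also called the direct difference of probe 1 (adjusted p = 0.0341), and no other alternative called either probe.

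No E protein probe passed the limma threshold in any comparison, and at an unadjusted p under 0.05 there was 1 of 6 in Gata2 KD against EV, 0 in Pu.1 KD against EV and 1 directly, each time Tcf3 probe 1. The share of all tested probes at that unadjusted cut-off was not worked out, here or for the lists below, so these counts have no background. Tcf3 encodes E12 and E47, and its brighter probe read 1.84, 1.80 and 1.90 in EV, 1.47, 1.47 and 1.53 in Gata2 KD, and 1.78, 1.85 and 2.01 in Pu.1 KD. The 3 Gata2 KD arrays lay below the other 6. The difference of Gata2 KD from EV was -0.35 (SE 0.12, interval -0.63 to -0.076, adjusted p = 0.189) and within slides -0.43 to -0.31. From Pu.1 KD it was -0.39 (adjusted p = 0.0979, with slides as a block 0.0454). Pu.1 KD was 0.034 from EV (interval -0.24 to 0.31). The dimmer Tcf3 probe gave -0.18, 0.13 and -0.31 for Gata2 KD from EV, Pu.1 KD from EV and Gata2 KD from Pu.1 KD, and correlated with the brighter one at 0.577 over 9 arrays.

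Tcf12, which encodes HEB, read -1.43, -1.35 and -0.99 in EV, -1.52, -1.59 and -1.60 in Gata2 KD, and -1.35, -1.32 and -1.27 in Pu.1 KD. The Gata2 KD arrays were again the lowest. The difference was -0.31 from EV (interval -0.65 to 0.025, adjusted p = 0.400) and -0.26 from Pu.1 KD (adjusted p = 0.471), and Pu.1 KD was -0.054 from EV. Tcf4 encodes E2-2, the E protein of plasmacytoid dendritic cells. Its brightest probe averaged 0.87 ± 0.15 in EV, 0.70 ± 0.14 in Gata2 KD and 1.02 ± 0.25 in Pu.1 KD (SD, n = 3), with overlap of every pair of groups and differences of -0.17, 0.15 and -0.32. Probe 2 of Tcf4 gave -0.061, 0.097 and -0.16. Probe 3 was dim, and EV replicate 3 stood apart on it at -2.21 against -4.08 and -4.50 in the other EV arrays. Its differences from EV were -0.44 and -0.47, and 0.25 and 0.22 without that array. The 3 Tcf4 probes did not follow each other, with pairwise correlations of 0.390, 0.192 and -0.079 over 9 arrays.

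**Figure D2:**
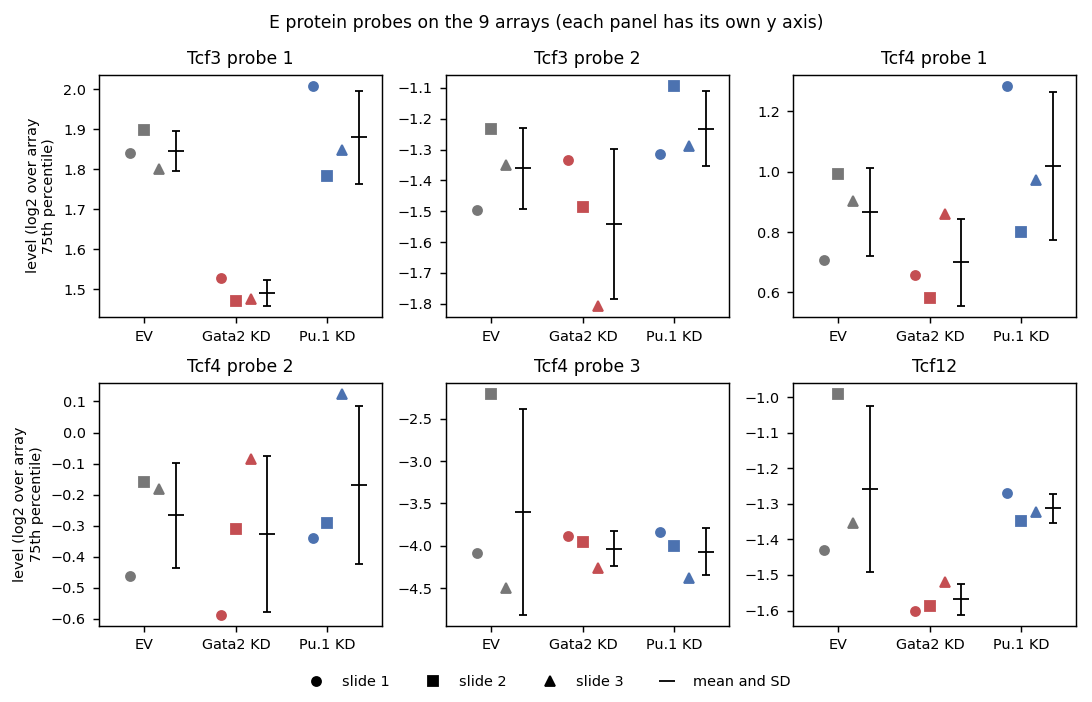
Level of each E protein probe (y axis, log2 over the array's 75th percentile, with its own range per panel) on the 9 arrays by group (x axis), with slides as symbols and mean and SD as bars. Tcf3 probe 1 and Tcf12 are lowest on the 3 Gata2 KD arrays, and EV replicate 3 (slide 2) stands apart on Tcf4 probe 3.

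Of the 11 probes, 2 were called in Gata2 KD against EV, both of Id2 and both higher, where 5.2% of the tested probes were called and 2.96% were called higher. In Pu.1 KD against EV the same 2 Id2 probes were called, both higher, against 2.7% of tested probes called and 1.27% called higher. In Gata2 KD against Pu.1 KD, 2 probes were called higher (Id2 probe 1 and Id3), against 9.63% called and 4.86% called higher. The groups did not overlap for 5 of 11 probes in Gata2 KD against EV (18.6% of tested probes), 2 of 11 in Pu.1 KD against EV (17.3%) and 6 of 11 in the direct comparison (25.8%). In Gata2 KD the 5 Id probes were above EV, with a median difference of 0.57, and the 6 E protein probes were below it, with a median of -0.25. The median of the tested probes was -0.092 in that comparison, and 63.3% of them were below 0. Probes of a gene share their transcript, so that these counts stand for 3 genes on either side. The split in Gata2 KD against EV was not firm for every probe. Leaving out 1 array changed the sign of Id1 probe 2, Tcf4 probe 2 and Tcf4 probe 3. Their ranges were -0.13 to 0.37, -0.18 to 0.068 and -0.89 to 0.25. Tcf4 probe 3 was above EV without EV replicate 3. The confidence intervals of the Id1 probes, Tcf3 probe 2, the Tcf4 probes and Tcf12 included 0.

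**Figure D3:**
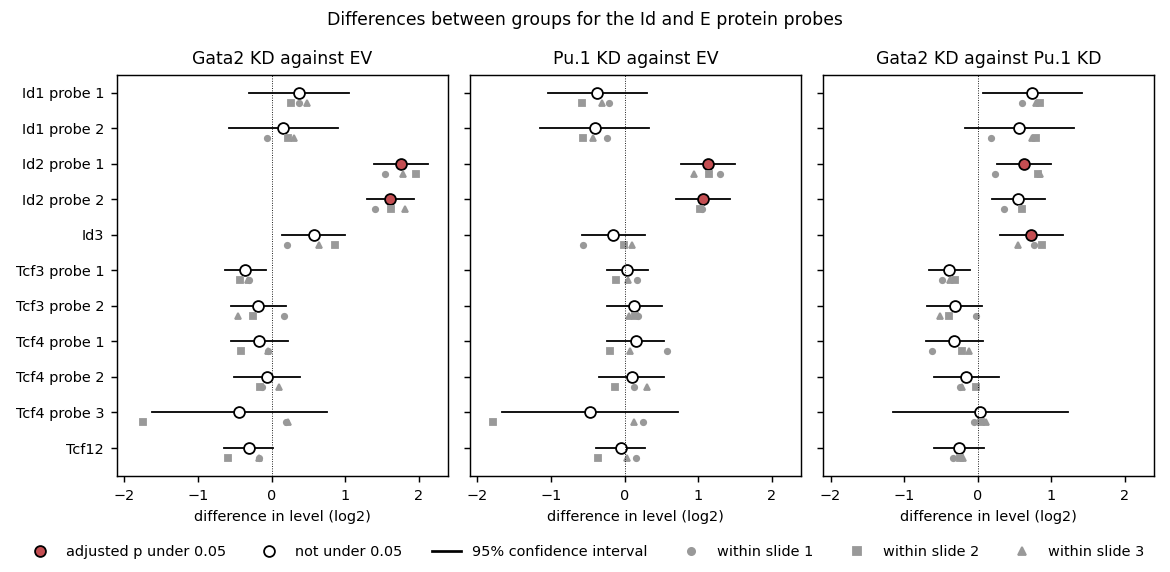
Difference in level (x axis, log2) for each Id and E protein probe (y axis) in the 3 comparisons, with the 95% confidence interval as a line and the differences within slides 1 to 3 as grey symbols. Filled circles mark the probes with an adjusted p under 0.05, which are the Id2 probes against EV and Id2 probe 1 and Id3 in the direct comparison.

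Markers of blood lineages moved between the same groups. The summed linear level of 12 neutrophil markers (in units of the array's 75th percentile) was 241 to 270.5 in EV, 1137 to 1356 in Gata2 KD and 106 to 125 in Pu.1 KD, with 11 of 12 genes called higher in Gata2 KD and 9 of 12 lower in Pu.1 KD. Of 9 tested monocyte and macrophage markers, 6 rose in Gata2 KD and 2 fell in Pu.1 KD, and the sum was 5.20 to 6.20, 40.7 to 43.7 and 3.28 to 4.01 in EV, Gata2 KD and Pu.1 KD. The 10 mast cell and basophil markers summed to 127 to 145, 24.9 to 26.9 and 90.5 to 98.4, with 7 called lower in Gata2 KD and 3 lower and 1 higher in Pu.1 KD. The 10 megakaryocyte markers summed to 66.4 to 84.3, 70.9 to 102 and 154 to 179, with 3 higher and 1 lower in Gata2 KD and 4 higher and 1 lower in Pu.1 KD. The 10 erythroid markers summed to 227 to 314, 133 to 201 and 249 to 292, with 2 lower in Gata2 KD and 2 higher in Pu.1 KD. The 9 progenitor markers, Gata2 among them, summed to 121 to 156, 116 to 144 and 141 to 164, with 2 higher and 2 lower in Gata2 KD and 1 higher and 1 lower in Pu.1 KD. Plasmacytoid dendritic cell markers summed to 20.7 to 29.5, 26.8 to 34.4 and 29.3 to 32.3, with 4 of 11 called higher in Gata2 KD and 1 in Pu.1 KD. Conventional dendritic cell markers summed to 21.1 to 24.8, 18.4 to 20.2 and 15.5 to 17.5, with 2 of 11 higher and 1 lower in Gata2 KD. Of these, Clec10a was the brightest and weighed most in the sum, and it fell from 4.30 in EV to 3.08 (difference -1.22). Irf8 and Batf3 rose by 4.38 and 1.82 (limma adjusted p = 3.47e-06 and 0.00073). Bst2, at 4.23 in EV, weighed most in the plasmacytoid sum. These genes were named after their values were seen. Beside all marker counts here, 7.15% of all named genes were called in Gata2 KD against EV and 3.61% in Pu.1 KD. Each measured marker of these lists was well above background on at least 1 array. The part of these shifts in the Id2 and Id3 differences was not tested. In such bulk samples a change in the number of cells of a type and a change in RNA per cell cannot be told apart.

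The list of class II bHLH factors and of the LMO2 complex, through which TAL1 and E proteins act on GATA-bound DNA, had 20 tested genes. In Gata2 KD against EV, 2 rose and 1 fell (15% against 7.15% of all named genes), with a list median of 0.026 against -0.091 for all genes. Lmo2, the bridging LIM protein, went from -0.74 ± 0.19 in EV to 0.18 ± 0.19 in Gata2 KD, a rise of 0.93 (adjusted p = 0.0342). Tal1 went from 3.60 ± 0.21 to 2.97 ± 0.061 and fell by 0.64 (adjusted p = 0.0367). The Lmo2 and Tal1 calls were lost in 9 and 12 of 21 alternative settings, Lmo2 without EV replicate 1 or 2, any Gata2 KD array or Pu.1 KD replicate 1, and Tal1 without any single array but EV replicate 1. Lmo1 rose by 2.95 (adjusted p = 0.000446) but was well above background on 1 of 3 EV arrays and on no Pu.1 KD array, and the rise over Pu.1 KD was at least 8.22-fold on the scale of the processed intensity (adjusted p = 5.75e-05). Over the alternatives that fitted it, the Lmo1 difference was as low as 0.88 from EV and 0.96 from Pu.1 KD, both with normexp background correction, and it was called in each.

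In Pu.1 KD against EV, 1 gene of these 20 fell (5% against 3.61% of all named genes). This was Lmo4, another LIM-only protein, from 4.53 ± 0.23 to 3.05 ± 0.17 (difference -1.48, adjusted p = 0.00699). Gata2 KD stood above Pu.1 KD for Lmo4 by 1.00 (adjusted p = 0.0106; 0.0513 without Pu.1 KD replicate 1), and below it for Tal1 by 0.98 (difference -0.98, adjusted p = 0.00255). With Lmo1 these made 15% of the list in the direct comparison, against 12.4% of all named genes. Lyl1, a close relative of Tal1, was 0.0052 from EV in Gata2 KD (adjusted p = 0.997) and -0.37 in Pu.1 KD (adjusted p = 0.324), and Ldb1 was 0.16 and 0.49 from EV with neither past the threshold.

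BMP and SMAD genes lie upstream of Id genes in many tissues. Of 20 tested genes 1 fell in each comparison with EV (5%, against 7.15% of all named genes in Gata2 KD and 3.61% in Pu.1 KD), and in both it was Tgfbr2, a TGF-beta receptor. Its level was 2.86 ± 0.088 in EV, 1.99 ± 0.045 in Gata2 KD and 1.54 ± 0.17 in Pu.1 KD (SD, n = 3), which are differences of -0.87 (adjusted p = 0.00708) and -1.32 (adjusted p = 0.00289). Id2 was also called in both comparisons with EV, in the opposite direction, though its Pu.1 KD calls were lost in several alternative settings. Both comparisons share the EV arrays, and a link between Tgfbr2 and Id2 was not tested. In the direct comparison Smad7, an inhibitory SMAD, was higher in Gata2 KD by 1.91 (adjusted p = 0.0395) and Eng, a BMP co-receptor, was lower by 0.54 (difference -0.54, adjusted p = 0.0281), which made 10% of the list against 12.4% of all named genes. Smad7 was well above background on 6 of 9 arrays, 1 of them in Pu.1 KD, its difference was 0.41 with normexp and 0.53 with the deposited log2 table, and its call was lost in 12 of 20 alternative settings, among them without EV replicate 3, any Gata2 KD array, or Pu.1 KD replicate 1 or 3. The Eng call was lost in 9 of 21, among them without any single Gata2 KD or Pu.1 KD array. Smad6 differed from EV by 0.53 in Gata2 KD (adjusted p = 0.370). Id4, the remaining family member, was dim, read well above background on 7 of 9 arrays and differed from EV by -0.98 and -0.95 (adjusted p = 0.804 and 0.863).

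**Figure D4:**
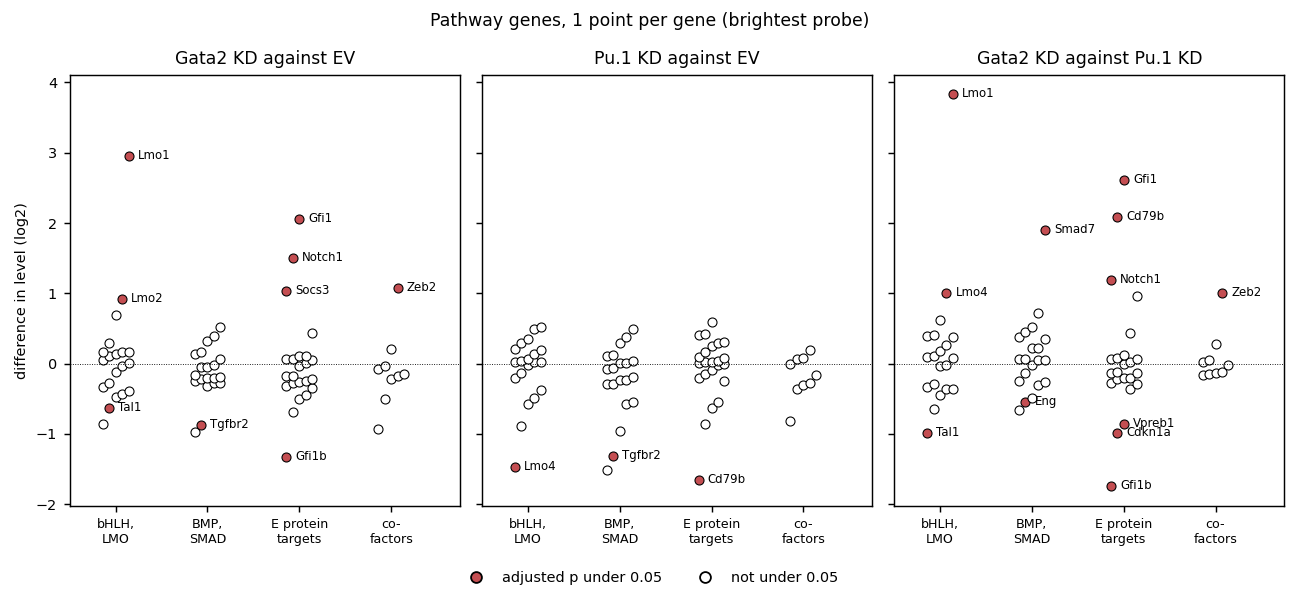
Difference in level (y axis, log2) of each tested gene in the 4 pathway lists (x axis) in the 3 comparisons, with filled points and names for genes with an adjusted p under 0.05. Tgfbr2 is below 0 in both comparisons with EV, and the genes that passed among the E protein targets lie on both sides of 0.

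Known or proposed E protein target genes gave calls in both directions. Of 23 tested genes, 3 rose and 1 fell in Gata2 KD against EV (17.4% against 7.15% of all named genes), and the list median was -0.17 against -0.091 for all genes. Gfi1, a transcriptional repressor that neutrophil and lymphoid development need, rose from -0.51 ± 0.15 to 1.54 ± 0.29 (difference 2.06, adjusted p = 0.000424). Its relative Gfi1b, which acts in erythroid cells and megakaryocytes, fell from 3.91 ± 0.34 to 2.58 ± 0.23 (difference -1.33, adjusted p = 0.00741). Notch1 rose by 1.503 (adjusted p = 0.00402). Socs3, a suppressor of cytokine signaling, rose by 1.03 (adjusted p = 0.00955), a call that was lost in 3 of 21 alternative settings, namely under median scaling (adjusted p = 0.0667), in a fit of the compared groups alone (0.0501) and when Gata2 KD replicate 2 was left out (0.0537).

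In Pu.1 KD against EV 1 of the 23 genes fell (4.35% against 3.61% of all named genes), which was Cd79b, a B cell receptor chain, from -0.83 ± 0.31 to -2.48 ± 0.16 (difference -1.65, adjusted p = 0.00351). The direct comparison called 3 higher and 3 lower in Gata2 KD (26.1% against 12.4% of all named genes), with Gfi1 at 2.61, Cd79b at 2.08, Gfi1b at -1.74 and Notch1 at 1.19 the largest in size. Cdkn1a and Vpreb1, named after their values were seen, were the other 2. The Cdkn1a call was lost in 9 of 21 alternative settings, among them without EV replicate 1, Gata2 KD replicate 2 or 3, or any Pu.1 KD array. Among genes of the lymphoid program, Rag1 was well above background on 7 of 9 arrays and Ebf1 on 4 of 9, neither passed the threshold in any comparison, and of 11 lymphoid markers 0 were called against EV by limma in either knockdown, with 1 at an unadjusted p under 0.05 in each. Directly, 2 of the 11 were called lower in Gata2 KD (18.2%, against 12.4% of all named genes). Vpreb1 was among them (difference -0.87, adjusted p = 0.00329). The 11 lymphoid markers summed to 3.82 to 5.13 in EV, 3.61 to 4.57 in Gata2 KD and 4.58 to 5.35 in Pu.1 KD. Several of the genes that moved here are also genes of neutrophil or erythroid cells, whose markers moved between the same groups as given above, and the part of that shift in these calls was not tested.

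The list of cofactors and of proteins that set Id or E protein stability had 9 tested genes. Zeb2, a zinc-finger repressor of E-box genes, rose in Gata2 KD from 0.017 ± 0.12 to 1.096 ± 0.24 (difference 1.08, adjusted p = 0.00793) and was higher than in Pu.1 KD by 1.01 (adjusted p = 0.00655). It made 11.1% of the list in both comparisons, against 7.15% and 12.4% of all named genes. No gene of this list was called by limma in Pu.1 KD against EV (1 at an unadjusted p under 0.05), and the list median there was -0.16 against -0.043 for all named genes.

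The genes whose pattern over the 9 arrays was most like that of each member were looked up among named probes well above background on every array, as a description. For Id2 probe 1 these were Slc39a4, a zinc transporter, at a correlation of 0.986, Tmem86a at 0.985 and Calcrl, a calcitonin-family receptor, at 0.981, and Fbxw4 was the most opposed at -0.98. For Id3, Nudt1 at 0.963 and Gnai2 at 0.951 were among the most alike, with Zfp239 most opposed at -0.98. Mapk7 was most like Id1 at 0.987, and Il27ra was the most opposed at -0.98. Tcf3 probe 1 was most like Tbcel (0.984) and most opposed to Padi4 (-0.98), an enzyme of granulocytes, and Tcf12 was most like Enc1 (0.980). The best match of Tcf4 probe 1, Nedd4 at 0.974, was lower than these. The correlations share arrays, slides and the 3 groups, and the highest of 19693 probes are high by selection.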

How the data were processed

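Total RNA of 9 sorted FDCPmix samples (EV, Gata2 KD and Pu.1 KD, 3 each, grouped by their titles) received a Cy3 label and went onto Agilent whole mouse genome arrays designed on build mm8. The authors deposited, per array, a scanner file from Agilent Feature Extraction (version 10.1.1.1) with the processed intensity of each spot (background-subtracted, not normalized between arrays), and a table of log2 values whose normalization is not given in the sources used here. Against the scanner files, that table follows the log2 median signal (correlation 0.997 to 1.000) on a direct, uncentred scale with medians of 7.00 to 7.05, so it holds signal without background subtraction, and it served as an alternative.

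Outlier-flagged spots (47 to 96 per array) were left out, repeat spots were averaged per probe in log2, and the 75th percentile of the array (452.5 to 598.9 in intensity) was subtracted. No spot was saturated, and 80.4% to 89.6% of spots were well above background. Probes well above background on at least 3 arrays with 2 values in every group were tested. Accessions matched to RefSeq (GRCm38.p6) named 23374 probes of 16535 genes, and lists used the brightest probe of each of 15808 tested genes. Groups were set against each other by a limma fit (version 3.58.1, R 4.3.3) of group means over 9 arrays, two-sided, with p-values adjusted by Benjamini-Hochberg across the tested probes and called under 0.05. Precision is limited by the number of arrays. Where a group had no array well above background, a fold change is a bound against the higher, per array, of the probe's value and the lowest value well above background. The fit was tested on simulated data with independent noise and no slide effect, so that test did not cover differences between slides. Figures used matplotlib 3.10.9.

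The members, the 4 pathway lists, the 9 marker lists and the naming rule (every member probe, the 3 named genes most alike and most opposed to each member, and up to 4 called genes per list and comparison) were chosen with earlier results of these data known. Some genes the rule names are not printed, and 1 gene of a pathway list is not reported here and was left out of its counts. The alternatives were replicate number or slide as a block, normexp with an offset of 50, quantile and median scaling, no filter or a filter on 9 arrays, outlier spots kept, trend and robust eBayes, the deposited log2 values, fits of the compared groups alone, each array left out and, chosen after seeing the data, the percentile over spots. Normexp was run on the median signal and median background, in place of the mean signal planned.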

Additional observations from a re-analysis of the deposited data

How the results depend on the processing

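Gata2 KD raised Id2 probe 1 in each of the 21 alternatives (1.68 to 1.88, adjusted p at most 0.00521). The 6 called member differences kept their call in 89 of 122 refits, lost it in 31 and changed sign in 2, and the 27 uncalled ones stayed uncalled with the same sign in 545 of 565. Both sign changes are the spot of Id2 probe 2 on Pu.1 KD replicate 2. With outlier spots kept the Pu.1 KD difference was -0.42, and with the deposited log2 table -0.40, and in each of these settings 1 member probe was called in either comparison with EV in place of 2. That probe could not be fitted without Pu.1 KD replicate 1 or 3, where Pu.1 KD would hold 1 value.

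Of the 2 member probes called in Pu.1 KD against EV, 0 were called under median scaling and with the compared groups alone. Of all tested probes, 2.7% were called there in the main fit, 1.03% under median scaling and 0.61% with the compared groups alone. Of the 2 in Gata2 KD against Pu.1 KD, 0 were called under median scaling and with no filter, 1 with the compared groups alone, 4 with trend and robust eBayes and 5 with slides as a block. The shares of all tested probes in these settings were 6.17%, 7.69%, 9.5%, 11.3% and 14.1%, against 9.63% in the main fit. The cause was not tested. With each array left out in turn, the member counts ran from 1 to 2 in Gata2 KD against EV, from 0 to 2 in Pu.1 KD against EV and from 0 to 1 directly.

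Correlations of deviations between same-numbered arrays ran from -0.55 to 0.65 (same slide, -0.041 to 0.72). The value of 0.65 came from EV replicate 2 and Pu.1 KD replicate 2, which also shared a slide. Because slide and number are mixed in this way, the correlations cannot show whether same-numbered samples shared a culture. With the replicate number as a block, 2 member probes were called in Gata2 KD against EV, 0 in Pu.1 KD against EV and 0 directly. Over all tested probes the block gave 1172, 234 and 2368 calls against 1902, 986 and 3524 without it, and slides as a block gave 2886, 1875 and 5168.

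Of the pathway genes, 9 were called in Gata2 KD against EV, and 6 with the compared groups alone. In Pu.1 KD against EV 3 were called, 5 with slides as a block or trend and robust eBayes, and 6 with normexp or the deposited table. Directly 12 were called, and 20 with the deposited table. The calls over all tested probes moved too. With the compared groups alone, 3.04% were called in Gata2 KD against EV, against 5.2% in the main fit. In Pu.1 KD against EV the shares were 5.13%, 4.31%, 3.8% and 4.88% with slides as a block, trend and robust eBayes, normexp and the deposited table, against 2.7%. Directly 12.4% were called with the deposited table, against 9.63%. Leaving out arrays gave 6 to 8, 3 and 8 to 12, the lowest without Gata2 KD replicate 2 and without Pu.1 KD replicate 1.

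With 1 array left out, some uncalled differences changed sign, and both of Tcf4 probe 3 against EV did so without EV replicate 3. For Gata2 KD against EV the ranges were -0.13 to 0.37 for Id1 probe 2, -0.18 to 0.068 for Tcf4 probe 2 and -0.89 to 0.25 for Tcf4 probe 3. For Pu.1 KD against EV they were -0.29 to 0.0097 for Id3, -0.14 to 0.079 for Tcf12, -0.030 to 0.083 for Tcf3 probe 1, -0.049 to 0.18 for Tcf4 probe 2 and -0.92 to 0.22 for Tcf4 probe 3. Directly the range was -0.12 to 0.15 for Tcf4 probe 3, which was -0.036 with the deposited table.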
